A study of Homo sapiens with 20 samples.

Results

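The genes described are 10 core genes of the Notch pathway, followed in human neural progenitor cells as these differentiated towards neurons. They are the receptors NOTCH1, NOTCH2 and NOTCH3, the ligands DLL1, DLL3 and JAG1, and the transcription factors HES1, HES5, HES6 and HEY1. Each was taken from the coding records of the deposited tables by its symbol, with the record of the highest mean level kept where a symbol had several. All 10 had 1 record, none of them merged with another gene, among 20237 coding records and 38369 records in all.

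Notch is a receptor that reads a ligand on a neighbouring cell. Binding of a Delta-like or Jagged ligand lets proteases release the intracellular part of the receptor, which enters the nucleus, joins the DNA-binding protein RBPJ and a Mastermind coactivator, and turns on HES and HEY genes. In the developing nervous system these repressors hold progenitors back from becoming neurons by restraining proneural factors, which in turn drive Delta-like ligands in the cells that go on to differentiate.

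The progenitors were made from H1, an established line of human embryonic stem cells, so that the course describes 1 genetic background. At day 0 the cells were in FGF-containing proliferation medium on Matrigel, and differentiation was begun by taking FGF, a mitogen, away and adding BDNF, a neurotrophic factor. The base medium and the amounts of its supplements changed at the same switch. All media held B27 supplement without vitamin A. The cells of days 5, 11 and 18 were moved at day 4 to a poly-D-lysine and laminin surface. Polyadenylated RNA was sequenced from 20 samples, 3 at each of days 0, 1, 2, 4, 11 and 18 and 2 at day 5.

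The values are FPKM, fragment counts scaled to transcript length and to library size, and can be compared between genes because they are given per length. Each record has a single value for a day, which the authors pooled from that day's samples, so no value below has a replicate error and no difference has a test. The depth behind each value is unknown. The summed FPKM of all records went from 413978 at day 0 to 251156 at day 18, and the median log2 change of expressed coding records over that span was -0.60. Changes were therefore taken on the log2(FPKM + 0.1) scale relative to the median change of the 11793 coding records with a mean of at least 1 FPKM, called expressed coding records below. A gene was said to rise or fall where it passed 2-fold on that scale.

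Fixed marker lists were read to check the cell type. From day 0 to day 18, 14.7% of expressed coding records rose and 12.1% fell, the shares to set beside the counts that follow. Of 8 expressed progenitor markers 3 rose and 1 fell over these days. Those that rose were PAX6 (4.31 to 10.4 FPKM), SLC1A3 (16.2 to 63.1 FPKM) and FABP7 (195 to 258 FPKM, short of 2-fold as deposited), and PROM1 fell (38.8 to 5.06 FPKM). SOX2 (126 to 66.1 FPKM) and NES (513 to 180 FPKM) did not pass 2-fold relative to the median, though NES did as deposited. The list summed to 3890 FPKM at day 0 and 2111 FPKM at day 18, most of it VIM (2948 to 1493 FPKM). POU5F1 and NANOG, which mark pluripotent cells, summed to at most 0.116 FPKM on any day. Neuron markers summed to 517 FPKM at day 0 and 1567 FPKM at day 18, and 6 of the 7 with a record rose. All 4 proliferation markers with a record fell, from a sum of 521 FPKM to 109 FPKM. Mesenchymal or mural markers fell in 4 of 6 expressed genes, from a sum of 629 FPKM to 54.4 FPKM, with COL1A1 listed at 0 throughout. Endothelial markers went from a sum of 30.1 FPKM to 0.894 FPKM. Of the astrocyte markers, 3 of 4 stayed below 1 FPKM on every day, GFAP among them. The exception, S100B, had 8.68 FPKM on day 0, 0.593 on day 2 and 4.25 on day 18. Of the oligodendrocyte lineage markers, 5 of 6 stayed below 1 FPKM on every day. The exception was the record that merges PDGFRA with FIP1L1, which stayed between 16.4 and 27.3 FPKM. In bulk RNA, fewer cells of a type and less RNA per cell cannot be told apart, and the part of these shifts in the Notch values was not tested.

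The promoters of the 3 HES genes are shown first, because HES5 and HES1 are the textbook direct targets of the RBPJ complex and yet took different courses, while HES6 rose late. Each sequence is the 250 bases before the RefSeq transcription start (promoter table of GRCh38.p14), read 5′ to 3′ on the strand of the gene, and capitals mark the core letters that RBPJ is known to bind, TGGGAA, on either strand (the reverse strand reads TTCCCA). An exact match placed them in hg19, the build of the deposited records, at chr1:2461703-2461952 on the minus strand for HES5, chr3:193853687-193853936 on the plus strand for HES1 and chr2:239148680-239148929 on the minus strand for HES6.
HES5: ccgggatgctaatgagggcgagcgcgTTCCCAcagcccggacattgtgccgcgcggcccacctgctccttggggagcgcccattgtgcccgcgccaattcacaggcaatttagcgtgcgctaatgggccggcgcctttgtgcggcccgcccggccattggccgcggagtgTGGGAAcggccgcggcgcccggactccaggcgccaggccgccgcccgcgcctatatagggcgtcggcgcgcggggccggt
HES1: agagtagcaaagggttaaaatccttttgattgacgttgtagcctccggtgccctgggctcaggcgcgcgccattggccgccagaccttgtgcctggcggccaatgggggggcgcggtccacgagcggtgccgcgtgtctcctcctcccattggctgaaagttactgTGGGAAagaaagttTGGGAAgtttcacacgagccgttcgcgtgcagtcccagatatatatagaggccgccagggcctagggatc
HES6: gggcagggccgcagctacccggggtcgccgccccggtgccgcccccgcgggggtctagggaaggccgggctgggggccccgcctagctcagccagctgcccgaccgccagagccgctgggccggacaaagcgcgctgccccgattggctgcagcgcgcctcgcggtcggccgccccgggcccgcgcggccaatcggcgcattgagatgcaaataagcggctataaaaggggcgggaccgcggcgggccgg
The end of the HES5 stretch lay 18 bases before the start of the deposited HES5 record, and those of HES1 and HES6 ended within 3 bases of theirs. HES5 held 2 matches, which began 224 and 80 bases before the start and lay on opposite strands. HES1 held 2 on the gene's own strand, 84 and 70 bases before the start, and HES6 held none. The letters TGGGAA occurred in 20.8% of 35116 RefSeq promoters cut to the same 250 bases, and at 2 or more places in 2.90%. The longer form GTGGGAA, which contains the shorter one, was found at both places in HES5 and at 1 in HES1, against 5.43% of promoters with it at all. The E-box CAGCTG, a type of site that proneural factors bind, was found once in HES6, in neither HES5 nor HES1, and in 14.0% of promoters. NOTCH1, NOTCH2, NOTCH3 and JAG1, whose promoters were in the table too, held none of these 3 motifs. DLL1, DLL3 and HEY1 had no entry. Such matches describe the letters only.

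An early step, from day 0 to day 1, and a late step, from day 5 to day 11, held every rise between adjacent days. The largest shares of all expressed coding records passed 2-fold in these steps too. NOTCH1, NOTCH2, NOTCH3, JAG1, HES1 and HEY1 passed 2-fold in no step. From day 0 to day 1, 3 of the 10 genes rose and none fell, where 6.76% of expressed coding records passed 2-fold in either direction and 4.66% rose. Those were HES5, DLL3 and DLL1. Between days 1 and 2, days 2 and 4, and days 4 and 5, the last of which includes the move to the new surface, none of the 10 passed 2-fold, where 0.271%, 0.78% and 0.416% of expressed coding records did. From day 5 to day 11, HES5, DLL1, HES6 and DLL3 rose and none fell, where 5.72% passed 2-fold in either direction and 2.67% rose. From day 11 to day 18, DLL3 fell and the other 9 did not pass 2-fold, where 3.24% did. The intervals are not of equal length. The early step combined the loss of FGF, the gain of BDNF and the change of base medium and supplements, which cannot be told apart.

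Over the whole course, from day 0 to day 18, HES5, DLL1, DLL3 and HES6 rose and no member fell, where 26.8% of expressed coding records passed 2-fold in either direction and 14.7% rose. The split depended on the scale. As deposited, without the median taken off, HES5, DLL1 and DLL3 rose, HES6 missed 2-fold at a log2 change of 0.89 and NOTCH3 fell, where 7.57% of expressed coding records rose and 29.9% fell.

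**Figure D1:**
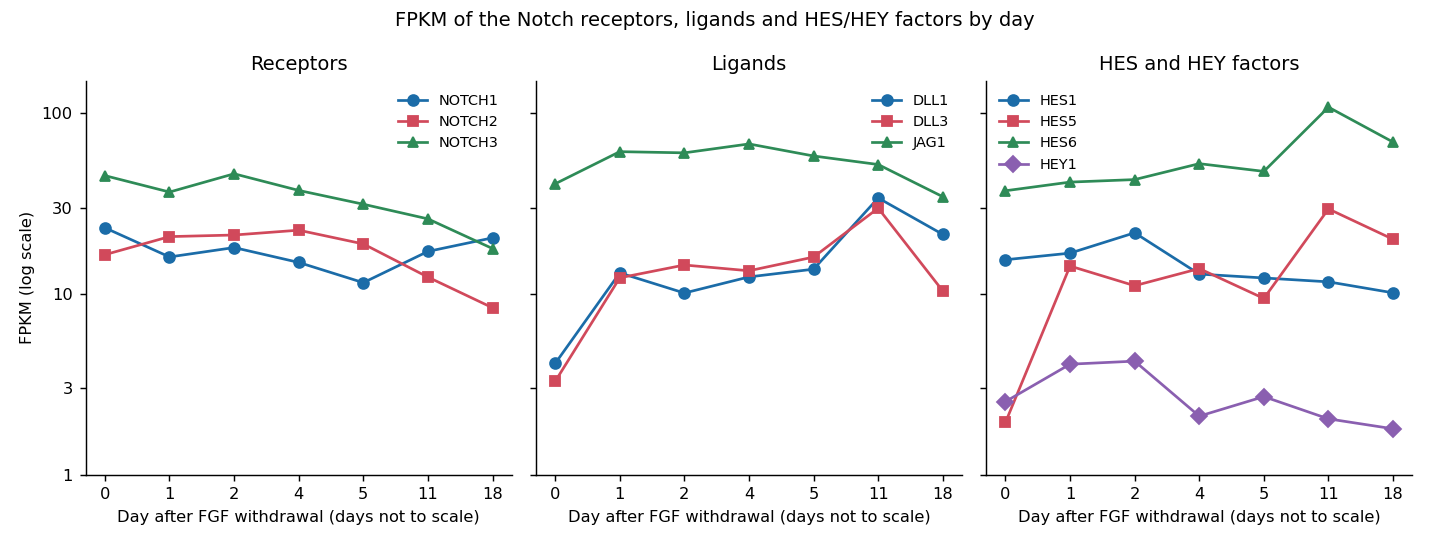
FPKM of the 3 receptors, 3 ligands and 4 HES and HEY factors on a log axis against the day of collection, with equally spaced days; each point is the authors' value over the samples of a day. DLL1, DLL3 and HES5 climb between days 0 and 1 and again to 29.5 to 33.9 FPKM at day 11, while HEY1 stays between 1.8 and 4.25 FPKM.

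Among the HES and HEY factors, HES5 changed most. HES5 is a repressor that is a main readout of Notch in neural progenitors, and it stood at 1.95 FPKM on day 0, 14.2 on day 1, 11.1 on day 2, 13.8 on day 4, 9.43 on day 5, 29.5 on day 11 and 20.0 on day 18. Its record lies at hg19 chr1:2460185-2461684 on the minus strand. HES5 was the lowest of the 10 genes at day 0 and the fifth highest at days 11 and 18. Its log2 change was 2.92 in the early step, 1.80 in the late step and 3.90 over the whole course. For the whole course 98.8% of expressed coding records had a lower change. The 1.95 FPKM of day 0 are the base of this fold, and the change as deposited was 3.30.

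HES1, the other direct target and the better known brake on neurogenesis, did not follow HES5. Its levels were 15.4, 16.8, 21.7, 12.9, 12.2, 11.7 and 10.1 FPKM on the 7 days in turn, with the highest value on day 2. No step passed 2-fold, the nearest being the log2 change of -0.75 from day 2 to day 4. Over the whole course HES1 was level with the median at -0.00 and changed by -0.60 as deposited. The ratio of HES5 to HES1 within a day, which no scaling between days can move, went from 0.126 on day 0 to 0.849 on day 1 and 2.53 on day 11, and was 1.98 on day 18. On the opposite strand, the noncoding record linc-HES1-AS overlapped 82.2% of the HES1 exon bases. The counting is not stated to use strand, so their reads may not be separable, but its level was at most 0.702 FPKM.

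HES6 differs in role, since it counters HES1 and favours neuronal differentiation. It was abundant from the start, at 37.1 FPKM on day 0, 41.5 on day 1, 42.8 on day 2, 52.4 on day 4 and 47.5 on day 5, and it became the highest of the 10 genes with 108 on day 11 and 69.0 on day 18. Its record, at hg19 chr2:239146910-239148681 on the minus strand, overlaps no other. Its one rise came from day 5 to day 11, with a log2 change of 1.34. The change from day 0 to day 18 was 1.49, past 2-fold, but 0.89 as deposited.

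HEY1, a related repressor with known roles in blood vessels as well as in the brain, was the lowest or next to lowest of the 10 genes on every day. It measured 2.54 FPKM on day 0, 4.09 on day 1, 4.25 on day 2, 2.11 on day 4, 2.70 on day 5, 2.04 on day 11 and 1.80 on day 18. The step from day 2 to day 4 came close to 2-fold at a log2 change of -0.98 with 0.1 added to the FPKM. Without that addition the ratio of the 2 days was 0.497, just past 2-fold. Like HES1, HEY1 was highest on day 2. From day 0 to day 18 its sign depended on the scale, at 0.12 relative to the median and -0.48 as deposited. The endothelial markers summed to 30.1 FPKM on day 0, most of it KDR (23.8 FPKM), and to 6.19 FPKM on day 1. Their part in the HEY1 value was not tested.

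Among the ligands, both Delta-like genes rose in the early and in the late step. DLL1, which activates Notch on the neighbouring cell, had 4.12 FPKM on day 0, 13.1 on day 1, 10.1 on day 2, 12.4 on day 4, 13.7 on day 5, 33.9 on day 11 and 21.3 on day 18. DLL3, a divergent ligand that acts mostly inside the cell and dampens the signal, had 3.28, 12.3, 14.4, 13.4, 16.0, 29.8 and 10.4 FPKM on the same days. Their records lie at hg19 chr6:170591296-170599697 on the minus strand and chr19:39989557-39999121 on the plus strand. Both sat near the middle of all coding records at day 0, with 53.8% and 51.6% of records below them, and above 92.4% and 91.0% at day 11.

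The log2 change of DLL1 was 1.75 in the early step, 1.46 in the late step and 2.94 over the whole course. For DLL3 the same values were 1.98, 1.06 and 2.23, and the late rise was 0.89, short of 2-fold, as deposited. The pair parted after day 11. DLL3 fell with a log2 change of -1.24 from day 11 to day 18, while DLL1 changed by -0.39, so that their ratio went from 1.14 to 2.05. The noncoding record linc-DLL1-AS shared 1578 bases with the DLL1 exons, 29.8% of them, on the other strand, so DLL1 reads may include some of its own. Its level ran between 5.33% and 8.27% of that of DLL1.

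JAG1, a Jagged ligand encoded at hg19 chr20:10618332-10654694 on the minus strand, was high on every day and moved little. It stood at 40.6, 61.1, 60.2, 67.4, 57.8, 51.8 and 34.4 FPKM from day 0 to day 18, a span of 1.96-fold between its extremes. No step passed 2-fold, and the change over the whole course was 0.36 relative to the median and -0.24 as deposited. JAG1 made up 84.6% of the summed FPKM of the 3 ligands on day 0, 70.7% on day 1, 44.9% on day 11 and 52.1% on day 18. DLL1 went the other way, from 8.59% to 15.1%, 29.3% and 32.2%. The ligand sum itself was 48.0 FPKM on day 0, 115 on day 11 and 66.1 on day 18.

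**Figure D2:**
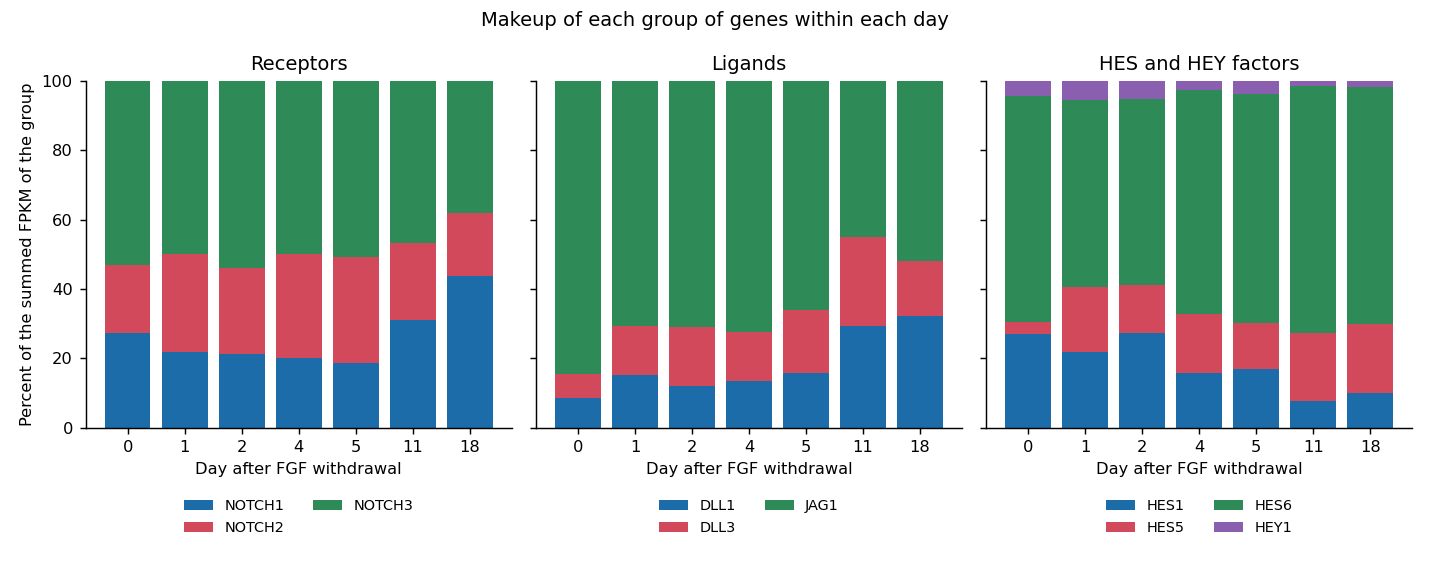
Stacked bars give each gene's percent of the summed FPKM of its group within a day, for the receptors, the ligands and the HES and HEY factors. JAG1 goes from 84.6% to 44.9% of the ligands by day 11, NOTCH1 from 18.7% of the receptors at day 5 to 43.8% at day 18, and HES5 from 3.41% of the HES and HEY factors to 18.6% within the first day.

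The receptors changed less than the Delta-like ligands, and relative to the median none passed 2-fold in any step. NOTCH1, the receptor most studied in neural progenitors, read 23.2 FPKM on day 0, 16.0 on day 1, 18.0 on day 2, 14.9 on day 4, 11.5 on day 5, 17.2 on day 11 and 20.4 on day 18. The record lies at hg19 chr9:139388897-139440238 on the minus strand. NOTCH1 was lowest at day 5, and its log2 changes to day 11 and then to day 18 were 0.73 and 0.52. Between days 0 and 18 the sign turned with the scale, 0.42 relative to the median and -0.18 as deposited.

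NOTCH3, a receptor known for its part in vascular mural cells and also found in progenitors, read 45.0, 36.5, 46.1, 37.3, 31.3, 26.0 and 17.8 FPKM on the 7 days. Its record lies at hg19 chr19:15270445-15311792, also on the minus strand. NOTCH3 was the highest of the 10 genes on day 0 and the sixth on days 11 and 18. Its log2 change from day 0 to day 18 was -0.74 relative to the median, short of 2-fold, and -1.33 as deposited. The mesenchymal or mural markers went down over the same days (RGS5 from 14.2 to 0.820 FPKM, TAGLN from 367 to 19.4 FPKM), and their part in the NOTCH3 value was not tested.

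NOTCH2 read 16.5, 20.7, 21.1, 22.5, 18.9, 12.4 and 8.38 FPKM, with a maximum on day 4. Its change from day 0 to day 18 was -0.37 relative to the median and -0.97 as deposited, in neither case past 2-fold. The partial copy NOTCH2NL is part of a separate record of 9 merged symbols that went from 32.4 to 19.1 FPKM. Reads from the shared part may have been split between the records, which leaves NOTCH2 uncertain to an unknown extent. The noncoding record linc-NOTCH2-AS on the other strand shares 319 bases with its exons as well.

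Within the receptors, the leading gene changed. NOTCH3 held 53.2% of their summed FPKM at day 0 and 38.2% at day 18, and NOTCH1 27.4% and 43.8%. NOTCH1 over NOTCH3 gave a ratio of 0.515 at first, 0.369 by day 5, 0.661 by day 11 and 1.15 in the last samples. The receptor sum went from 84.6 to 46.6 FPKM as deposited. These shares and ratios have no replicate error.

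**Figure D3:**
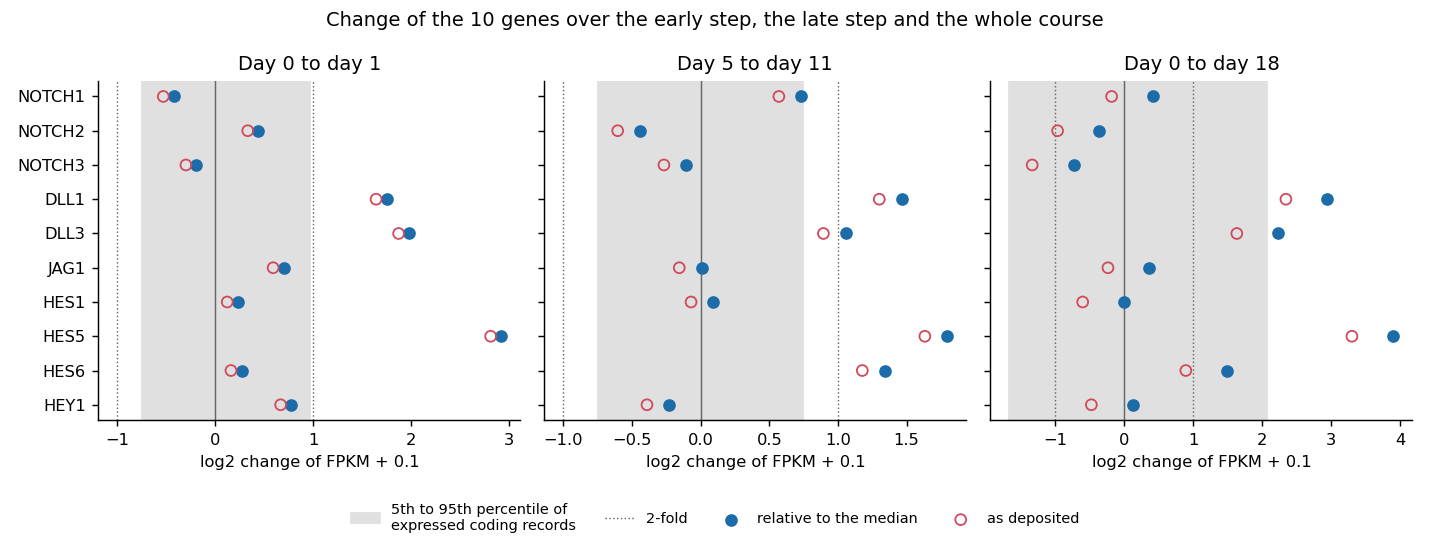
Log2 change of FPKM + 0.1 for the 10 genes in the early step, the late step and the whole course, relative to the median (filled) and as deposited (open), with the range between the 5th and 95th percentile of expressed coding records in grey and 2-fold dotted. DLL1, DLL3 and HES5 lie right of the grey range in all 3 panels relative to the median, HES6 in the late step only, and NOTCH3 passes 2-fold lower over the whole course only as deposited.

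Other genes of the pathway were read from a list of 55, of which 54 had a record and 45 were expressed. From day 0 to day 18, 14 of the 45 rose, 4 fell and 27 did neither, with a median log2 change of 0.26, where 14.7% of expressed coding records rose, 12.1% fell and the median is 0 by construction. As deposited, 9 rose and 5 fell, with a median of -0.33. Without the proneural factors, 10 of 41 rose and 4 fell, with a median of 0.14.

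Most genes of the machinery that cuts and transmits the signal stayed within 2-fold relative to the median. So did most expressed coding records, of which 26.8% passed it in either direction. None of the 8 proteases that release the receptor passed 2-fold, ADAM10 (34.4 to 17.4 FPKM) and the gamma-secretase subunit NCSTN (39.8 to 28.8 FPKM) among them. The same was true of the antagonists NUMB, NUMBL and ITCH. As deposited, ADAM10 changed by -0.98, and the 8 proteases summed to 243 FPKM on day 0 and 157 FPKM on day 18. In the nuclear complex RBPJ stood at 17.9 FPKM on day 0 and 14.2 on day 18, and 1 of 6 genes rose, the Mastermind coactivator MAML3, with a log2 change of 2.12 from a low start of 1.75 FPKM. Of the 6 expressed corepressors, 1 record rose, that of TLE1, which is merged with TLE4 and changed by 1.29, or 0.69 as deposited.

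Further ligands and the enzymes that modify ligands and receptors gave a mixed picture. DNER, a ligand-like protein of neurons, rose from 2.86 to 33.7 FPKM, a log2 change of 4.12, and JAG2 from 0.671 to 2.15 FPKM, a change of 2.14, while DLK1 did not pass 2-fold. MIB2, which ubiquitylates ligands, rose by 1.53, or 0.93 as deposited. MFNG, a Fringe glycosyltransferase whose record is merged with CARD10, fell by 2.37, and POFUT1, which adds fucose to Notch, fell by 1.00, just at the limit. The record of NOTCH4, a receptor of endothelial cells, is merged with GPSM3 and fell by 1.46, from 4.43 to 0.984 FPKM. The endothelial marker sum, which rests mostly on KDR, went from 30.1 to 0.894 FPKM over the same days. Any part of endothelial cells in the NOTCH4 value was not tested.

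Other targets and feedback genes rose in 5 of 7 expressed cases, where 14.7% of expressed coding records rose. HES4, another HES repressor, had 9.93 FPKM on day 0, 30.3 on day 1, 38.1 on day 11 and 31.4 on day 18, a log2 change of 2.25 over the course. HES3 was transient, with 3.02 FPKM on day 0, 17.9 on day 1, 24.3 on day 5 and 5.32 on day 18. Of the Deltex ubiquitin ligases, which act on Notch, DTX1 rose by 4.50 from 0.180 FPKM, DTX4 by 1.41 and DTX3 by 1.25, while DTX2 fell by 1.05. The rises of HES3, DTX3 and DTX4 were 0.80, 0.65 and 0.81 as deposited. NRARP, a feedback inhibitor, missed 2-fold at 0.96.

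The 4 expressed proneural and related factors all rose, also as deposited. NEUROG2, a proneural factor that drives DLL1, had 0.693 FPKM on day 0, 5.06 on day 1, 7.82 on day 5, 19.4 on day 11 and 9.93 on day 18. The log2 changes from day 0 to day 18 were 4.26 for NEUROG2, 3.50 for INSM1, 3.33 for NEUROD4 and 2.47 for the record that merges NEUROD1 with CERKL. From day 0 to day 1, 3 of the 4 rose, where 4.66% of expressed coding records did. From day 5 to day 11, 3 rose, where 2.67% did. Of the 7 neuron markers with a record, 3 rose in the first of these steps, DCX (5.46 to 11.4 FPKM), SYP (1.75 to 3.66 FPKM) and ELAVL4 (0.149 to 0.368 FPKM), and 3 in the second. Their sum was 517 and 501 FPKM on days 0 and 1, most of it the record that merges TUBB3 with MC1R and TUBB2C (382 and 299 FPKM), and 880 and 1473 FPKM on days 5 and 11.

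**Figure D4:**
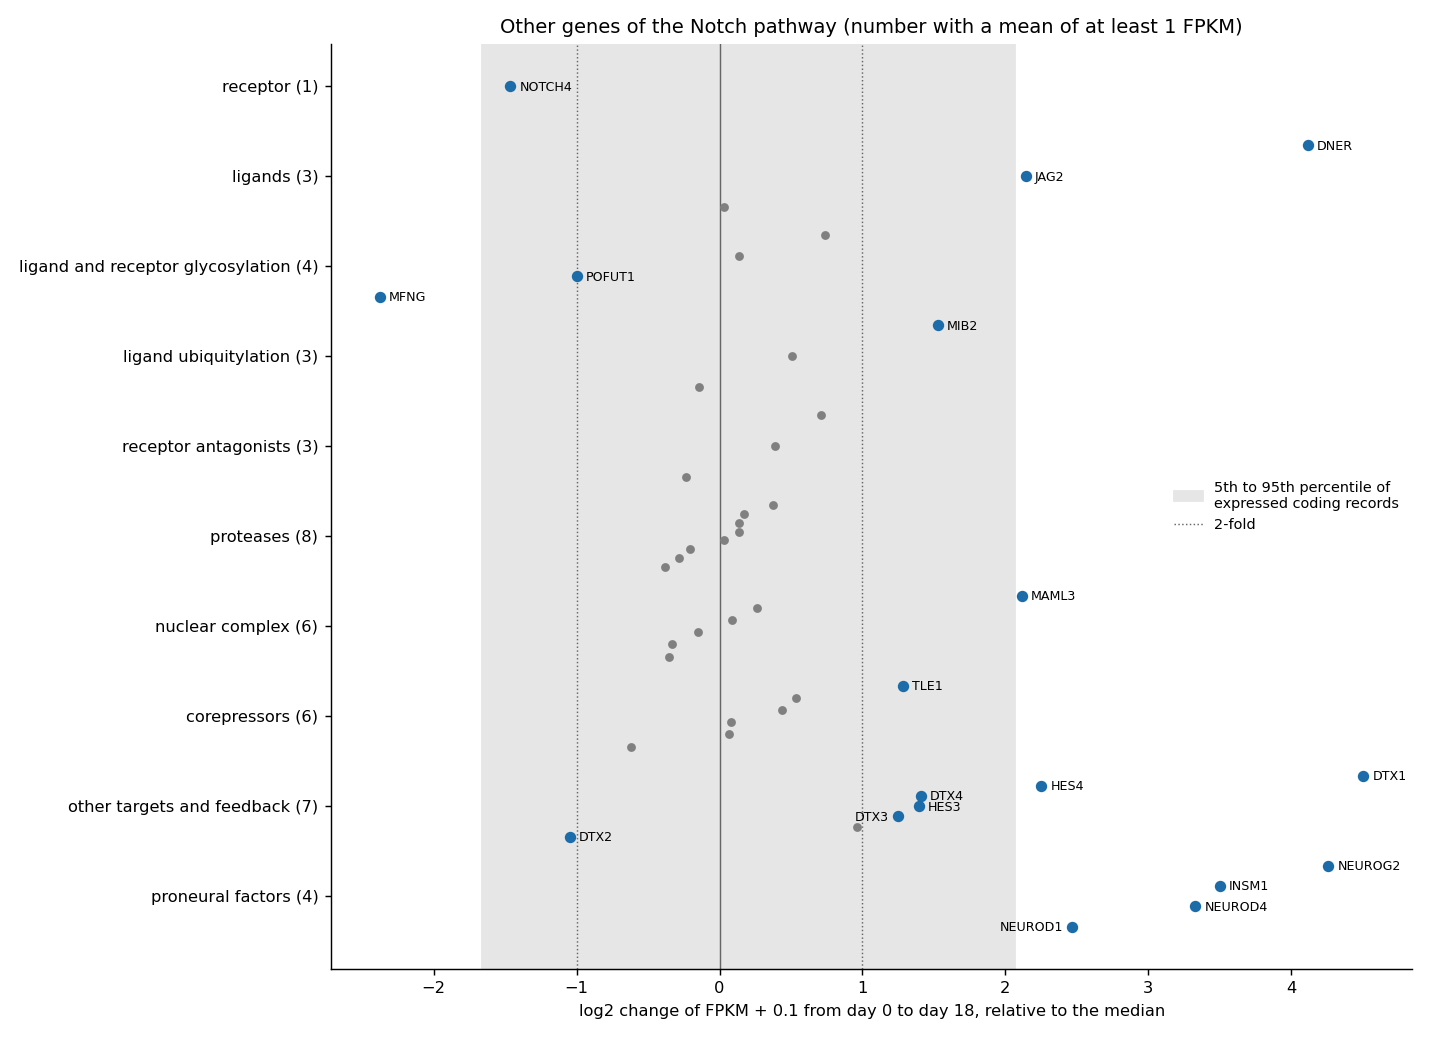
Log2 change from day 0 to day 18, relative to the median, of the 45 expressed genes of the wider list by their role; genes past 2-fold are named and blue, and grey marks the 5th to 95th percentile of expressed coding records. The 8 proteases gather around 0, and the 4 proneural factors lie between 2.47 and 4.26.

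The likeness of patterns was measured as the Pearson correlation of log2(FPKM + 0.1) over the 7 days, across the same pooled libraries, and is given as a description. The values were as deposited, without the median taken off, so a drift shared by most records enters these correlations. Its part in them was not tested. Among the members, DLL1 was most like HES5 (r = 0.95 over 7 days), HES1 was like HEY1 (0.90), and DLL1 ran most opposite to NOTCH3 (-0.75). Outside the list, the 2 expressed coding records most like each member were PBX4 and SPINK5 for DLL1, CBFA2T2 and PCMTD2 for DLL3, and the merged record of C6orf130 and UNC5CL and CES2 for JAG1. For HES5 they were PAX7 and the merged record of ANKRD36 and ANKRD36B, for HES1 FLNC and PRKCA, for HES6 a record without a symbol and ZNF91, and for HEY1 TIRAP and AGXT2L2. For the receptors they were RAPGEFL1 and PHC3 (NOTCH1), CKLF and WDR54 (NOTCH2), and ATF7 and DUSP11 (NOTCH3). These correlations lay between 0.93 and 1.00, and the number of records at 0.95 or above ran from 1 for NOTCH1 and 38 for HES5 to 1228 for NOTCH3. With Spearman's correlation, 1 of these 20 genes was again among the nearest 2.

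Long intergenic noncoding RNA records named after the 10 genes numbered 26, for 7 of them. Most were low, 17 staying below 0.1 FPKM on every day and 8 reaching 0.5 FPKM. The highest was linc-DLL1-AS, with 0.251, 1.00, 0.835, 0.661, 0.872, 2.58 and 1.54 FPKM on the 7 days, highest at day 11 as DLL1 was. It lies at hg19 chromosome 6, 170591307 to 170593397, and 79.2% of its exon bases are also exon bases of DLL1, so that this likeness cannot be told apart from shared reads. The record linc-NOTCH3-AS, which shares 505 bases with NOTCH3, stayed between 0.795 and 1.31 FPKM. Some records that reached 0.5 FPKM share no exon bases with the gene they are named after. Among these, linc-HEY1, 1509 bases from HEY1 on the same strand, went from 0.601 FPKM on day 0 to 0.0281 on day 18. Over the same days linc-JAG1-4 went from 0.490 to 0.0304 FPKM, linc-NOTCH1-1 from 0.673 to 0.0362 and linc-NOTCH1-BP from 0.770 to 0.377. The record linc-NOTCH2-BP went up from 0.107 to 0.218 FPKM, with 0.742 on day 5. These values are as deposited.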

How the data were processed

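The labels give 20 samples at 7 days, grouped here by the day in their titles. That the cells came from H1 is taken from the paper. Paired-end reads were mapped to hg19 by the authors in TopHat2, transcripts were built in Cufflinks, and Cuffdiff2 gave expression levels (TopHat2 and Cuffdiff2 at default options). Versions are not given in the sources used here. The deposited FPKM hold 1 value per record and day, pooled by the authors over samples, and 0 columns hold values of single samples. The limma fit planned for single samples was therefore not possible, and no error, interval or p-value was computed. Depth is unknown. A second deposited table gives exon coordinates (read as annotation) and the authors' fold changes, test statistics, p-values and q-values between adjacent days, which were not used.

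Changes are log2(FPKM + 0.1) differences less the median over coding records with a mean of at least 1 FPKM, and a difference of at least 1 was counted. The script was tested on simulated data. Named are all 10 members, list genes past that limit from day 0 to day 18, markers needed for each list's level and the 2 records most like each member. The members and gene lists were chosen with earlier results of these data known. No record was found for the markers RBFOX3, CDK1 and PECAM1 or for POGLUT1 of the pathway list, and 1 gene of that list is not reported here. Promoters are from RefSeq, which matched 7 of the 10 symbols, and motifs were searched on both strands. Python 3.11.15 with pandas 2.3.3 and numpy 2.4.6 was used.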

Additional observations from a re-analysis of the deposited data

How the results depend on the processing

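Pseudocounts of 1 and 0.01, values as deposited, an equal FPKM sum per day, summed records, lower filters and day 11 in place of day 18 were tried. Of 500 changes of single members so recomputed, 467 kept their sign and their side of 2-fold, 27 not past 2-fold changed sign, 3 dropped below 2-fold and 3 passed it. The 467 include 70 from summed records, which could not differ because each member had 1 record. In some steps the values without a filter were also the same as those as deposited, so the settings are not independent. No change past 2-fold reversed. The count of members past 2-fold was within 1.5 times of that reported except in 3 cases. A limit of 1.5-fold in place of 2-fold gave 5 members from day 0 to day 1, where 21.5% of expressed coding records passed, and 2 from day 2 to day 4, where 4.27% did. A pseudocount of 0.01 gave 1 from day 2 to day 4, HEY1. Without a filter on low values, NOTCH3 fell from day 0 to day 18 and DLL3 did not pass 2-fold from day 5 to day 11. No paired analysis was possible because the files hold 1 pooled value per day, and for the same reason leaving out each replicate could not be run. With depth unknown, low values such as those of HEY1 or DTX1 have no known precision.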
